A study of Oryza sativa Japonica Group with 4 samples.

Results

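Of the 37862 rice genes in the count table, 302 (0.798%) were nearly silent in the libraries labelled WT and carried reads in both libraries labelled OsbZIP47KD. They were chosen by a fixed rule on the raw counts, namely at most 2 counts summed over WT replicates 1 and 2 and at least 5 counts in each of OsbZIP47KD replicates 1 and 2. They are called gained genes here, as a name for the rule. The rule is itself the comparison of OsbZIP47KD with WT, so the difference between the groups in these genes is described and not tested. The 2 OsbZIP47KD libraries came from panicles of the RNA interference line osbzip47 dsRNAi 14 in cultivar TP309, and the 2 WT libraries came from TP309 panicles without the transgene. All panicles were 0.1 to 0.5 cm long and were pooled, so a lower number of cells of one type and less RNA per cell cannot be told apart. Both OsbZIP47KD libraries trace to 1 transgenic line, in which the maize ubiquitin promoter drives a hairpin carrying a piece of the 3′ untranslated region of OsbZIP47. The replicates are described as biological, and whether each pool held separate plants is not given in the sources used here.

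OsbZIP47 is a bZIP transcription factor of the TGA type, a class of plant proteins that bind DNA as dimers and act in meristems, in floral development and in responses to stress. A young rice panicle is made of meristems, branches and floret primordia, and a large share of the rice genome is little used at this stage. Genes for receptor kinases, cytochromes P450, cell wall enzymes and F-box proteins come in large families in rice, whose members are often used in only a few tissues or conditions. A count of a few reads in such a gene is close to the lowest level that a library of this depth can register.

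The libraries differed in ways that bear on a rule set at a few counts. Total counts were 3839165 and 4063036 in OsbZIP47KD replicates 1 and 2, and 5611969 and 5100799 in WT replicates 1 and 2. The limit of 2 counts over both WT libraries corresponded to 0.187 CPM (counts divided by the library total, times 1000000), whereas 5 counts corresponded to 1.30 CPM in OsbZIP47KD replicate 1 and to 1.23 CPM in replicate 2. OsbZIP47KD replicate 2 stood apart, with 3027 genes at 0, against 5327 in OsbZIP47KD replicate 1 and 4818 and 5683 in the WT libraries. Even counts outnumbered odd ones at low levels in every library. They made up 68.7% and 61.5% of the genes with 1 to 10 counts in OsbZIP47KD replicates 1 and 2, and 63.2% and 66.9% in WT replicates 1 and 2, against 49.7% to 50.3% of the genes over 100 counts. Even values were thus in excess at low counts, while odd ones remained common. Whether both mates of a read pair were counted is not stated, and 2 WT counts may stand for 1 fragment.

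The targeted gene did not separate the labels in the direction of a knockdown. OsbZIP47 (Os06g0265400) had 1003 and 919 counts in the OsbZIP47KD-labelled libraries, against 471 and 261 in the WT-labelled ones, or 261 and 226 CPM against 83.9 and 51.2 CPM. Counts from the endogenous transcript and from the hairpin, which holds the same untranslated sequence, cannot be told apart in a count per gene. The labels are therefore used as given. Of 27 tissue markers, 7 could be matched by name. Names were at hand only for genes that the study itself had selected as changed, so these 7 are not a fair sample of the markers and do not show how each tissue as a whole was represented. The panicle genes MADS16 and DL summed to 43.5 and 103 CPM in the OsbZIP47KD-labelled libraries, against 32.4 and 32.5 CPM in the WT-labelled ones. The tapetum regulator TDR had 4 and 37 counts in OsbZIP47KD replicates 1 and 2, against 0 and 4 in WT replicates 1 and 2, and was thus highest in the same library that detected the most genes. The leaf genes CAB1R and CAB2R summed to 48.2 and 69.4 CPM in the OsbZIP47KD-labelled libraries, against 129 and 189 CPM in the WT-labelled ones. The seed oleosins OLE16 and OLE18 summed to 18.0 and 17.7 CPM, against 5.88 and 7.06 CPM. The part of these tissues in the gained genes was not tested.

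The 302 gained genes made up 0.798% of all genes and 5.40% of the 5594 genes with at most 2 counts over both WT libraries. A further 1677 of these 5594 genes had no count in either library labelled OsbZIP47KD. The mirror rule, with at most 2 counts over both OsbZIP47KD libraries and at least 5 in each WT library, gave 64 lost genes, or 1.71% of the 3742 genes that were nearly silent in OsbZIP47KD. There were 4.72 times as many gained as lost genes. This ratio moved with the limits, and the numbers moved with single libraries. With the limits set in CPM and alike in both directions, there were 278 gained and 15 lost genes. In whole counts these limits were stricter for lost genes. Over the smaller OsbZIP47KD totals, 0.187 CPM stood for fewer than 2 summed counts, so genes with 2 counts there could not be lost genes. At a limit of 10 counts in each high library there were 54 gained and 18 lost genes, and at a limit of 20 counts 4 and 1. With both limits doubled to 4 and 10 counts, an alternative chosen after the data were seen because of the even counts, there were 94 gained and 37 lost genes. With a library left out, a low group of 1 library had a limit of 1 count in place of 2. A high group of 1 library needed 5 counts in that library only. The gained and lost rules were then unlike, so these ratios are not comparable with 4.72. Without OsbZIP47KD replicate 2 the numbers were 468 gained and 301 lost, a ratio of 1.56. Without OsbZIP47KD replicate 1 they were 1642 gained and 147 lost, a ratio of 11.2. Without WT replicate 1 they were 542 and 181, and without WT replicate 2 they were 481 and 260. Gained genes outnumbered lost genes under each of these settings, and the ratio was lowest without OsbZIP47KD replicate 2, where the 2 rules were unlike. Whether the number exceeds what chance gives was not tested.

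**Figure D1:**
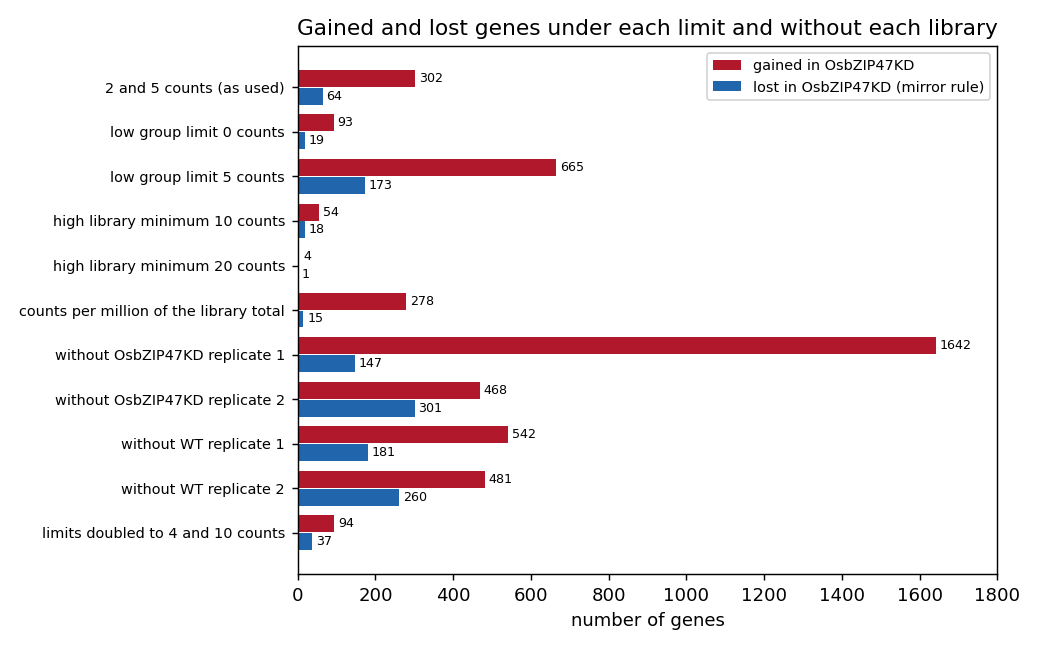
Number of genes gained in OsbZIP47KD (upper bar of each pair) and lost by the mirror rule (lower bar), on a linear axis from 0, for the limits as used, for other limits and without each library. The gained bar is the longer one in every pair, from 302 against 64 as used to 468 against 301 without OsbZIP47KD replicate 2. Where a library was left out, the gained and lost rules were not mirrors of each other.

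Most gained genes were only just above the limit. The mean level over both OsbZIP47KD libraries was 1.27 CPM in the lowest gene, 2.38 CPM at the median and 55.7 CPM in the highest, and 221 of the 302 genes were under 3 CPM. In the lower of the OsbZIP47KD libraries, 69 genes had exactly 5 counts and 97 had 6, while 54 genes had at least 10 counts in both and 4 had at least 20 in both. Just outside the limit, 227 further genes had 4 counts in the lower OsbZIP47KD library, and 79 and 172 genes missed it with 3 and 4 counts over the WT libraries. Summed over all gained genes, there were 2770 and 4143 counts in OsbZIP47KD replicates 1 and 2, against 208 and 166 in WT replicates 1 and 2. The 3 most abundant genes held 10.2% of the summed OsbZIP47KD counts and the 10 most abundant 16.1%, so the total was spread over many low genes.

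In the WT libraries, 93 of the gained genes had no count, 44 had 1 count and 165 had 2 counts. Of those with 2, 151 had both in 1 library and 14 had 1 in each. Genes with no WT count made up 30.8% of the gained genes and 53.5% of all genes at or under the WT limit. Set against a floor of 3 counts for both WT libraries together, the 93 genes with no WT count were at least 4.52-fold to at least 26.7-fold higher in the OsbZIP47KD-labelled libraries. For the 209 genes with 1 or 2 WT counts, the ratio of pooled CPM was 6.78 in the lowest gene, 14.2 at the median and 298 in the highest. The limits of the rule set the low end of these ratios. Exact 95% binomial intervals given for single genes cover counting error only and are too narrow if both mates were counted.

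**Figure D2:**
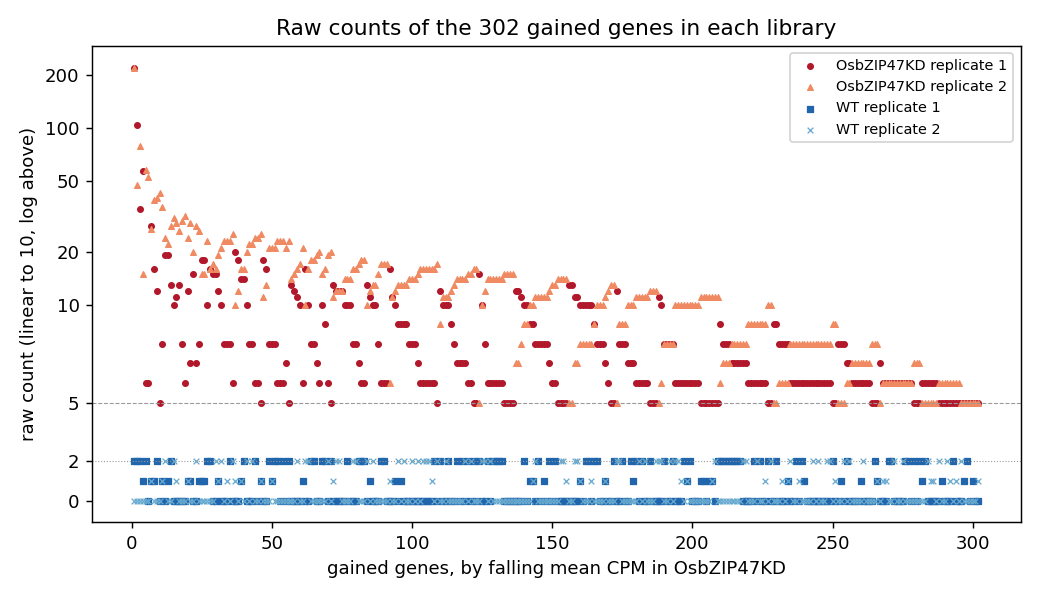
Raw counts of the 302 gained genes in OsbZIP47KD replicates 1 and 2 (red and orange) and WT replicates 1 and 2 (blue), with the genes ordered by their mean CPM in OsbZIP47KD; the count axis is linear to 10 and logarithmic above. Dashed and dotted lines mark 5 and 2 counts, and most genes lie between 5 and 20 counts in OsbZIP47KD replicate 1, with replicate 2 often above it.

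Across all genes, edgeR's quasi-likelihood test on the raw counts called 32 of 25289 tested genes higher in the OsbZIP47KD-labelled libraries at an adjusted p under 0.05, which is 0.127%, and 132 lower, which is 0.522%. Of the 302 gained genes, 66 passed the filter on low counts and were tested, and 6 of these were called higher. Since the rule used the same contrast, nothing is read from this share. The filter could be passed only through the OsbZIP47KD counts, so the 66 genes do not stand for the 302. The 6 called genes were Os03g0629800, Os06g0543601, Os01g0356951, Os09g0554101, Os07g0575500 and Os03g0388900. With a library left out, from 3 gained genes (without OsbZIP47KD replicate 1, and likewise without replicate 2) to 11 (without WT replicate 2) were called. The share of all tested genes called higher was then 0.0728%, 0.0789% and 1.35% without OsbZIP47KD replicate 1, OsbZIP47KD replicate 2 and WT replicate 2, in that order, and 109, 25 and 203 gained genes were tested.

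Os03g0629800, described only as an expressed protein, was the most abundant gained gene by a wide margin. It had 219 and 221 counts in the OsbZIP47KD-labelled libraries, against 2 and 0 in the WT-labelled ones. The pooled ratio was 298 (exact 95% binomial interval 82.1 to 2470), and the OsbZIP47KD replicates were close to each other. Os06g0543601, also an expressed protein with no named function, had 104 and 48 counts, against 2 and 0. Here OsbZIP47KD replicate 1 was the higher one by CPM. Both genes lay far above the limit of 5 counts in OsbZIP47KD, but with 2 WT counts each they were at the edge of the WT limit.

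Os01g0356951, listed as a long non-coding RNA, had 35 and 79 counts in the OsbZIP47KD-labelled libraries, against 2 and 0 in the WT-labelled ones, with a pooled ratio of 77.3 (interval 20.9 to 646). Os09g0554101, for which no description was found, had 57 and 15 counts, against 1 and 0. It was the gained gene most unequal in favour of OsbZIP47KD replicate 1, with a log2 ratio of replicate 2 to replicate 1 of -2.01. Os05g0517400, another expressed protein, had 6 and 58 counts, against 2 and 0. It was the most unequal in favour of replicate 2, with a log2 ratio of 3.19, and its high mean came from 1 library.

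Among the gained genes with a symbol or a described function, 20 were followed by name as the most abundant. Their mean levels ran down to 4.05 CPM, and 6 of them had no WT count. By CPM, 17 were higher in OsbZIP47KD replicate 2 than in replicate 1, 13 of them more than 2-fold. Of all gained genes 72.2% were higher in replicate 2, and of those with 30 to 49 summed OsbZIP47KD counts 86.5%. The number of 17 is near the share at that abundance and is not read as a trait of the named genes.

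**Figure D3:**
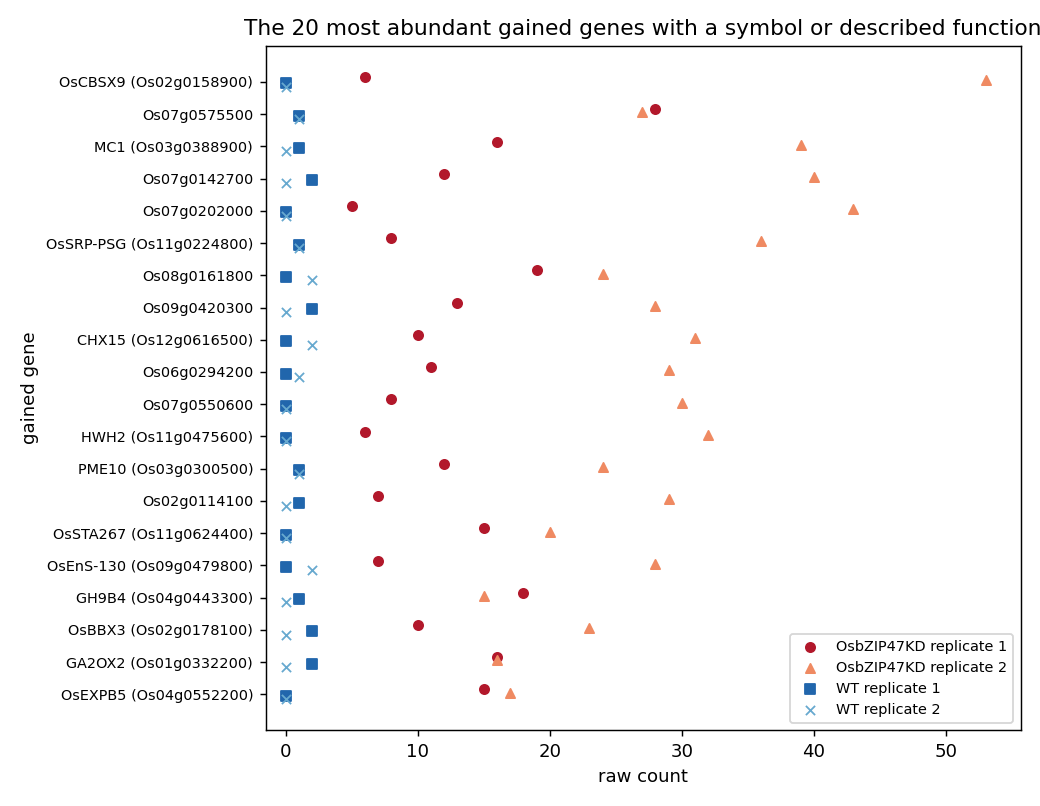
Raw counts per library of the 20 most abundant gained genes with a symbol or a described function, one gene per line, for OsbZIP47KD replicates 1 and 2 (red circles, orange triangles) and WT replicates 1 and 2 (blue squares, crosses). All WT points lie at 0 to 2 counts, and the orange triangles lie right of the red circles for most genes, for example 53 against 6 counts for OsCBSX9.

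OsCBSX9 (Os02g0158900), a membrane protein with CBS domains, had 6 and 53 counts in the OsbZIP47KD-labelled libraries and none in either library labelled WT. It was at least 26.7-fold higher against a floor of 3 WT counts and at least 13.3-fold higher against a floor of 6. Its counts in the OsbZIP47KD libraries differed 8.35-fold by CPM, so nearly all of this signal came from replicate 2. Os07g0575500, a beta-hexosaminidase, a kind of enzyme that removes terminal amino sugars from glycans, had 28 and 27 counts, against 1 and 1. Its OsbZIP47KD counts were close to each other, and the pooled ratio was 37.3 (interval 9.84 to 316).

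MC1 (Os03g0388900), a metacaspase, one of the cysteine proteases linked to cell death in plants, had 16 and 39 counts in the OsbZIP47KD-labelled libraries, against 1 and 0 in the WT-labelled ones. OsSRP-PSG (Os11g0224800), of the serpin family of protease inhibitors, had 8 and 36 counts, against 1 and 1. Both were higher in OsbZIP47KD replicate 2. The protease list held 2 further gained genes, both aspartic proteinases of the nepenthesin type. Os12g0583300 had 6 and 23 counts, against 2 and 0, and Os07g0533600 had 8 and 10 counts, against none.

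The cell wall list held 7 gained genes, at 1.64 to 4.52 CPM, of which 3 had no WT count. Of the 7, 5 were higher in OsbZIP47KD replicate 2, beside 72.2% of all gained genes. The words of the list took in riceXIP (Os11g0701100), named here with its values known, as a glycosyl hydrolase. The paper's supplementary annotation classes riceXIP under stress. PME10 (Os03g0300500), a pectinesterase, which removes methyl groups from pectin, had 12 and 24 counts in the OsbZIP47KD-labelled libraries, against 1 and 1 in the WT-labelled ones. OsEXPB5 (Os04g0552200), a beta-expansin, one of the proteins that loosen grass cell walls, had 15 and 17 counts, against none. OsPGL12 (Os11g0249400), a polygalacturonase, which cuts the pectin backbone, had 10 and 20 counts, against 0 and 2. Os06g0212400, described as a xyloglucan fucosyltransferase, which adds fucose to the side chains of a hemicellulose, had 7 and 21 counts, against none.

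Of these, OsEXPB5 was the most even between the OsbZIP47KD libraries, and it was at least 14.5-fold higher against the floor of 3 WT counts. Families outside the function lists, chosen after their values were seen, also act on the wall. Endoglucanases, enzymes related to cellulases, numbered 3. GH9B4 (Os04g0443300) had 18 and 15 counts in the OsbZIP47KD-labelled libraries, against 1 and 0 in the WT-labelled ones. OsGLU5 (Os01g0220100) had 9 and 13 counts, against 0 and 2, and GH9C1 (Os04g0674800) had 5 and 11, against 1 and 0. All of them have a neighbouring gained gene, which is taken up with the positions. The TBL family, whose members acetylate wall polysaccharides, also had 3 gained genes, and class III peroxidases had 4, at 1.90 to 2.62 CPM.

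Transcription factors were the largest function list, with 15 gained genes at 1.64 to 4.13 CPM, of which 3 had no WT count. The list rests on words. It took in Os02g0249200, a C3HC4 zinc finger protein with no assigned class, and missed the ZF-HD gene Os09g0414500, both named with their values known. OsBBX3 (Os02g0178100), a B-box zinc finger protein, had 10 and 23 counts in the OsbZIP47KD-labelled libraries, against 2 and 0 in the WT-labelled ones. OsBBX30 (Os12g0209200), of the same family, had 6 and 25 counts, against 0 and 2. NAC79 (Os04g0437000) had 14 and 16 counts, against 1 and 1, and was the most even of the 4. DOF29 (Os05g0440000), a zinc finger factor of the Dof family, had 6 and 24 counts, against 2 and 0.

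In 13 of the 15 genes of the transcription factor list OsbZIP47KD replicate 2 was the higher one by CPM, beside 72.2% of all gained genes. The list held no MADS-box gene. Its lower members, picked here with their values known, included OsbHLH156 (Os04g0381700), a regulator of the response to iron shortage, with 5 and 13 counts in OsbZIP47KD, against 2 and 0 in WT. OsMyb10, ERF100 and NAC12, likewise picked with their values known, were at 2.87, 2.40 and 1.66 CPM.

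Cytochrome P450 enzymes, which oxidise small molecules such as hormones and defence compounds, numbered 9, all of them higher by CPM in OsbZIP47KD replicate 2. Of all gained genes 72.2% were higher there, so in a list of this size nothing is read from it. Os04g0128001 had 10 and 21 counts in the OsbZIP47KD-labelled libraries, against 0 and 2 in the WT-labelled ones. Os05g0515200 had 8 and 21 counts, against 1 and 1. OsAOS3 (Os02g0218700), also named OsHPL2, of the P450 branch that processes fatty acid hydroperoxides, had 7 and 19 counts, against none. Os04g0480650 had 5 and 20 counts, against 2 and 0. SLB1 (Os01g0700900), a P450 of strigolactone synthesis named for its neighbouring gained gene, had 5 and 14 counts, against 0 and 2, but shares these with the next gained gene.

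OsAOS3 was at least 11.7-fold higher against the floor of 3 WT counts. The gene numbered next to it, OsAOS4, had 4 and 18 counts in OsbZIP47KD, against 3 and 0 in WT, and missed both limits by 1 count. Lipid and jasmonate enzymes numbered 4, namely OsAOS3 and the GDSL lipases GELP57, GELP99 and GELP111. GELP99 (Os09g0247600) had 5 and 16 counts in the OsbZIP47KD-labelled libraries, against none in the WT-labelled ones. All 4 were higher in OsbZIP47KD replicate 2, beside 72.2% of all gained genes.

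Enzymes of secondary metabolism gave 5 gained genes and glycosyltransferases 3. Os07g0202000, described as an anthocyanidin 3-O-glucosyltransferase, had 5 and 43 counts in the OsbZIP47KD-labelled libraries and none in the WT-labelled ones. It was the third of the most unequal gained genes, with a log2 ratio of replicate 2 to replicate 1 of 3.02, after Os05g0517400 and OsCBSX9 at 3.06. Os07g0672700, a further glucosyltransferase, had 12 and 19 counts, against 1 and 1, and Os03g0841600 had 9 and 9, against 2 and 0.

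NOMT (Os12g0240900), the methyltransferase that makes the rice phytoalexin sakuranetin, had 8 and 18 counts in the OsbZIP47KD-labelled libraries, against 2 and 0 in the WT-labelled ones. OsTPS29 (Os08g0139700), a terpene synthase, had 10 and 8 counts, against 0 and 1. PKS27 (Os11g0566800), described as a chalcone synthase, had 6 and 8 counts, against none, and Os02g0468100, an O-acyltransferase, had 8 and 18, against 2 and 0. OsTPS29 was the only gene of this list higher by CPM in OsbZIP47KD replicate 1.

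Receptor kinases and disease resistance proteins numbered 10, of which 6 had no WT count. Os09g0551000, a receptor kinase, had 8 and 23 counts in the OsbZIP47KD-labelled libraries, against 0 and 1 in the WT-labelled ones. Os12g0246700, a resistance protein similar to RPM1, had 10 and 16 counts, against 0 and 2. Os11g0691500, a wall-associated kinase, had 10 and 13 counts, against none, and Os11g0208900, a receptor-like kinase, had 9 and 13, against none. The median of the list was 1.89 CPM, below the 2.38 CPM of all gained genes.

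The list of defence proteins and proteinase inhibitors held 3 gained genes. Its words missed the serpin OsSRP-PSG and the osmotin OsOSM1, among others, so this number depends on the words. OsTHI32 (Os09g0409000), a thionin, one of the small antimicrobial peptides, had 10 and 14 counts in the OsbZIP47KD-labelled libraries and none in the WT-labelled ones. The chitinase chi11 (Os03g0132900) had 6 and 10 counts, against 0 and 1, and OsLTP2.6 (Os06g0705400) had 6 and 8, against 0 and 1. OsLTP2.6 and the peptide hormone RALF41 (Os12g0571600), with 5 and 10 counts against 0 and 2, made up the list of lipid transfer and pollen proteins.

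The ubiquitin system, which marks proteins for breakdown, gave 8 gained genes, all of them higher by CPM in OsbZIP47KD replicate 2. The share over all gained genes was 72.2%. OsFbox520 (Os10g0130200) had 8 and 23 counts in the OsbZIP47KD-labelled libraries, against 2 and 0 in the WT-labelled ones. An unnamed ubiquitin family gene, Os03g0808400, had 8 and 16 counts, against 0 and 2. OsFbox305 (Os06g0248300) had 5 and 15 counts, against none. OsMB33 (Os10g0423700) and OsFbox460 (Os08g0493100), tied in mean CPM, had 8 and 11 counts each, against none for OsMB33 and 1 and 0 for OsFbox460. OsPUB13 (Os06g0726900), described by its likeness to the ubiquitin ligase spotted leaf 11 missed by the words of the list and picked with its values known, had 6 and 24 counts, against none.

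Transporters numbered 8. HWH2 (Os11g0475600), of a transporter family, had 6 and 32 counts in the OsbZIP47KD-labelled libraries and none in the WT-labelled ones. CHX11 (Os05g0382200), a cation and proton exchanger, had 8 and 21 counts, against 2 and 0. OsNAR2.2 (Os04g0480200), a partner of nitrate transporters, had 13 and 10 counts, against 0 and 2, and OsZIP8 (Os07g0232800), a metal transporter, had 6 and 16, against 0 and 2. HWH2 differed 5.04-fold between the OsbZIP47KD replicates, whereas OsNAR2.2 was higher in replicate 1. CHX15 (Os12g0616500), an exchanger of the same family as CHX11 but outside the words of the list, had 10 and 31 counts, against 0 and 2.

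Mobile elements accounted for 7 gained genes by their descriptions. Os05g0512100, described as a centromere-specific retrotransposon, had 10 and 17 counts in the OsbZIP47KD-labelled libraries and none in the WT-labelled ones. Os03g0147150, described as a transposon protein, had 10 and 15 counts, against 2 and 0. Os03g0109800 had 8 and 7 counts, against 2 and 0. Os01g0332200, also in the list, carries the symbol GA2OX2, a gibberellin 2-oxidase that inactivates gibberellin, beside a retrotransposon description, and had 16 and 16 counts, against 2 and 0. Its place in the list therefore rests on one of its conflicting descriptions.

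Further hormone genes, named after their values were seen, had fewer counts than GA2OX2. The auxin repressor IAA20 (Os06g0166500) had 6 and 16 counts in the OsbZIP47KD-labelled libraries, against 0 and 2 in the WT-labelled ones. The gained gene Os06g0166050, numbered near IAA20 but not its immediate neighbour, had the same counts in every library. Whether the 2 share reads was not tested. OsPIN5B (Os08g0529000), an auxin carrier, had 6 and 14 counts, against 2 and 0. CKX1 (Os01g0187600), a cytokinin dehydrogenase that breaks down cytokinin, had 7 and 6 counts, against 0 and 2. With 2 WT counts in a single library each, these genes were at the edge of the WT limit.

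Of the other abundant named genes, Os07g0142700 and Os07g0550600 belong to a family of transferases that had 6 gained genes. Os07g0142700 had 12 and 40 counts in the OsbZIP47KD-labelled libraries, against 2 and 0 in the WT-labelled ones, and Os07g0550600 had 8 and 30, against none. All 6 were higher by CPM in OsbZIP47KD replicate 2, beside 72.2% of all gained genes. OsEnS-130 (Os09g0479800), a phosphofructokinase of glycolysis, had 7 and 28 counts, against 0 and 2. Os06g0294200, described as a cadmium tolerance factor, had 11 and 29 counts, against 0 and 1, and Os02g0114100, an auxin-induced protein, had 7 and 29, against 1 and 0.

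Os08g0161800, with a cytidylyl transferase domain, had 19 and 24 counts in the OsbZIP47KD-labelled libraries, against 0 and 2 in the WT-labelled ones. Os09g0420300, a methyladenine glycosylase of DNA repair, had 13 and 28 counts, against 2 and 0. OsSTA267 (Os11g0624400), an expressed protein, had 15 and 20 counts, against none. OsRAmy3E (Os08g0473600), an alpha-amylase that breaks down starch, was picked with its values known, with 8 and 22 counts, against none.

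Described functions covered only some of the gained genes. A description was found for 228 of the 302 genes, but 49 of these were described only as an expressed or hypothetical protein, which leaves 179 with a described function. A symbol was found for 96, and 82 genes fell into at least 1 of the function lists. The lists match words in descriptions and symbols, so they can miss a gene or take in one of another kind. The study's annotation covers only genes that the study itself had selected, so the shares can be set only beside those of the 1276 other described genes that it listed as higher. Both denominators, 228 and 1276, include genes described only as expressed or hypothetical proteins. Cytochromes P450 made up 3.95% of the described gained genes and 2.35% of those others. Receptor kinases and disease resistance proteins made up 4.39% and 2.67%, transcription factors 6.58% and 8.54%, the ubiquitin system 3.51% and 3.61%, mobile elements 3.07% and 2.98%, and cell wall genes 3.07% and 3.06%. No list held more than 15 gained genes. By MapMan class, the largest group of gained genes was not assigned, with 85 genes, followed by miscellaneous enzymes with 25, protein with 16, and RNA and signalling with 15 each. The differences between these shares were not tested.

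Gained genes leaned toward OsbZIP47KD replicate 2. The median log2 ratio of replicate 2 to replicate 1, in CPM, was 0.40 over the 302 genes, and 218 of them (72.2%) were higher in replicate 2. A difference of more than 2-fold in favour of replicate 2 was seen in 86 gained genes and in favour of replicate 1 in 9. Over the 26005 other genes with at least 5 counts in both OsbZIP47KD libraries, the median was 0.07, with 55.6% higher in replicate 2. With the TMM factors in place of library totals the median of the gained genes was 0.36, and over the 54 gained genes with at least 10 counts in both libraries it was 0.11. The value for other genes at that minimum was not computed.

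Beside other genes of like abundance, gained genes had the higher median in each class, but the share higher in replicate 2 differed little among the most abundant. At 20 to 29 counts summed over both OsbZIP47KD libraries, the median log2 ratio was 0.92 over 90 gained genes and 0.42 over 1832 other genes. At 30 to 49 counts it was 1.12 over 37 gained genes and 0.36 over 2986 other genes. At 15 to 19 counts it was 0.43 and 0.24, and at 10 to 14 counts, where the limit of 5 leaves little room for a difference, 0.14 and -0.08. At 50 or more counts it was 1.09 over 9 gained genes and 0.04 over 20056 other genes. In that class 5 of the 9 (55.6%) were higher in replicate 2, against 53.4% of the other genes. All 5 were more than 2-fold higher there, and 2 of the 9 were more than 2-fold higher in replicate 1. Over the 64 lost genes, the median log2 ratio of WT replicate 2 to WT replicate 1 was -0.08. Of the 9 gained genes more than 2-fold higher in replicate 1, the most unequal were Os09g0554101, then Os01g0217100 with 15 and 5 counts in OsbZIP47KD, against 2 and 0 in WT, and Os02g0833950 with 16 and 6, against 0 and 1.

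**Figure D4:**
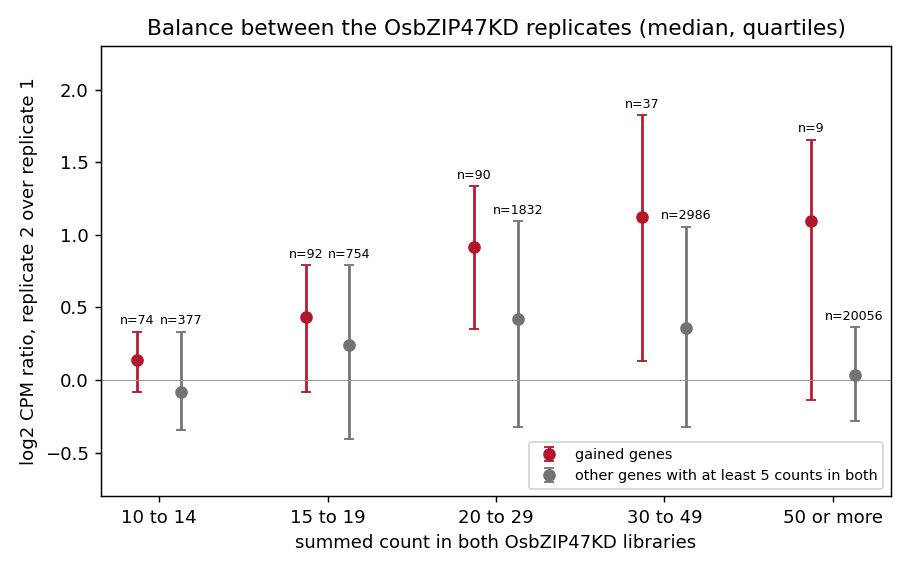
Median log2 ratio of CPM in OsbZIP47KD replicate 2 to replicate 1, with bars from the lower to the upper quartile, by the summed count in both libraries, for gained genes (red, left of each pair) and other genes with at least 5 counts in both (grey, right). The red median is above the grey one in each class, for example 0.92 against 0.42 at 20 to 29 counts.

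The same lean appeared in how many near-silent genes each OsbZIP47KD library raised over the limit. Among the 5594 genes with at most 2 WT counts, 468 had at least 5 counts in OsbZIP47KD replicate 1 and 1642 in replicate 2. Of the 468, 64.5% also reached 5 counts in replicate 2 and are the gained genes, whereas of the 1642, 18.4% also reached 5 counts in replicate 1. The 1340 genes that reached 5 counts only in replicate 2 had a median of 9 counts there, and 659 of them had no count in replicate 1. The 166 genes that reached it only in replicate 1 had a median of 6 counts there, and 52 had none in replicate 2. In all, near-silent WT genes summed to 7922 counts in OsbZIP47KD replicate 1 and to 22532 in replicate 2. The part of the wider detection in replicate 2 in the number of gained genes was not tested beyond the values without each library.

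Gained genes lay on all 12 chromosomes, with 17 on chromosome 12 to 40 on chromosome 1. The files give no coordinates, so positions were taken from the order of the RAP identifiers, which number genes along each chromosome. Their share of a chromosome's genes ran from 0.571% on chromosome 3 to 1.11% on chromosome 11. As a share of the near-silent WT genes of a chromosome, it ran from 4.35% on chromosome 10 to 6.35% on chromosome 1. Chromosome 11 thus had the highest share of all genes, but its share of 4.58% of 590 near-silent genes was among the lower ones.

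**Figure D5:**
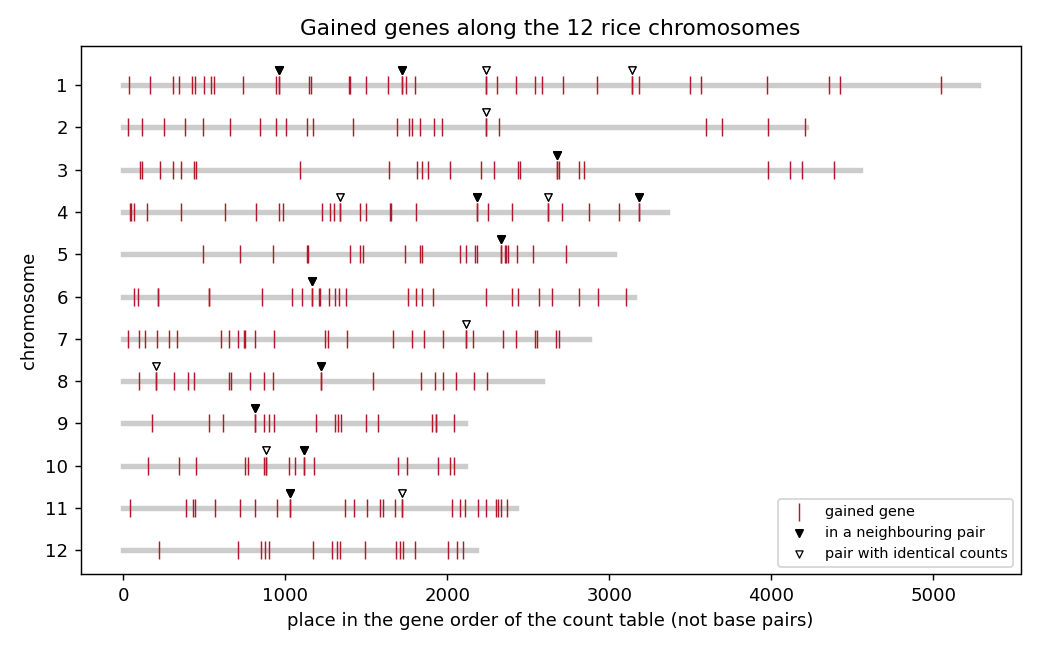
Places of the 302 gained genes (red ticks) in the gene order of the count table along the 12 chromosomes (grey bars), in numbers of genes and not base pairs. Triangles mark the 20 pairs of immediate neighbours, open where both genes had identical counts in all 4 libraries (9 pairs), and no run is longer than 2 genes.

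Pairs of neighbours were found, but no longer runs. In all, 40 gained genes (13.2%) had another gained gene as immediate neighbour, forming 20 pairs on 11 chromosomes. A gained gene was the immediate neighbour of 1.59% of all genes and of 2.14% of the 5292 other genes with at most 2 WT counts. In 9 of the 20 pairs both genes had identical counts in all 4 libraries, and in 15 pairs, these included, no library differed by more than 3 counts. Among neighbouring genes with at least 10 counts each in the whole table, 267 of 28622 pairs (0.933%) were identical. That set was not matched to the gained genes in abundance, and equal counts arise more easily at low counts. Identical pairs may be overlapping or antisense gene models that share the same reads, and without strand information they cannot be told apart. Without the identical pairs, 22 gained genes (7.28%) had a gained neighbour, and counting each identical pair once left 293 gained genes. Of the 64 lost genes, 4 (6.25%) were in pairs. Within 10 places in the gene order, 23.2% of gained and 12.5% of lost genes had another of their kind. Gained genes were the more numerous kind, which alone raises such a share. The shares of gained and lost genes thus do not show which kind lies closer together. No background share was computed for lost genes or for the wider distance.

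The pairs included several genes described above. GH9B4 and Os04g0443400, which has no description, both had 18 and 15 counts in the OsbZIP47KD-labelled libraries, against 1 and 0 in the WT-labelled ones. The counts of SLB1 and Os01g0701100 were identical, as were those of PKS27 and Os11g0567200. OsEXPB5 and Os04g0552250 differed by up to 3 counts in a library, and OsGLU5 and Os01g0220150 by up to 2. By contrast, OsMyb10 and Os09g0401050 differed by up to 9 counts in a library, and GH9C1 and Os04g0674900 by up to 6.

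Genes beside the gained genes were examined as well. Of 563 immediate neighbours that were not themselves gained, 20.1% had at most 2 WT counts, against 14.8% of all genes. Over the 387 neighbours with at least 20 counts in all, the median log2 ratio of pooled CPM in OsbZIP47KD to WT was 0.30, against 0.14 over all genes with at least 20 counts. By their identifiers, 61 gained genes (20.2%) had a serial number that is not a multiple of 100, the form given to loci inserted between earlier ones. This share was 33.7% among all near-silent WT genes, 34.4% among lost genes and 21.1% among all genes. None of these differences was tested.

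At the edge of the rule, OsOSM1 (Os12g0569500), an osmotin, and Os07g0152301, described as a Ty3-gypsy retrotransposon, each had 5 and 5 counts in the OsbZIP47KD-labelled libraries and none in the WT-labelled ones, the lowest values the rule admits. Both were at least 4.52-fold higher against the floor of 3 counts, and with a floor of 6 counts this bound becomes 2.26-fold. CYCD7;1 (Os11g0706801), a D-type cyclin that acts at the entry into the cell cycle, had 4 and 5 counts, against none, and missed the rule by 1 count in OsbZIP47KD replicate 1. LAX2 (Os04g0396500), a regulator of axillary meristems, had 23 and 58 counts, against 2 and 2, and was kept out by its WT counts, although its OsbZIP47KD counts exceeded those of nearly every gained gene.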

How the data were processed

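Total RNA of pooled panicles was depleted of ribosomal RNA and sequenced as paired reads. Per the labels, the authors aligned reads with STAR v2.5.3a to the rice genome of RAP-DB and deposited raw counts per gene, and the counting program, strand setting, build and annotation version are not given in the sources used here. The deposited normalized table was not used. Gained genes, the mirror rule, CPM, neighbours and balance were computed in Python v3.11.15 from the raw counts. All genes were tested in edgeR (v4.0.16, under R v4.3.3; filterByExpr at a count of 10 and a total of 15, TMM, robust quasi-likelihood test, Benjamini-Hochberg adjusted p under 0.05), which was tested on simulated data. DESeq2 v1.42.0 was an alternative. P-values measure the spread between 2 libraries per group. Descriptions, symbols and MapMan classes come from the paper's supplementary annotation, which assigns them through MSU identifiers, so a symbol can belong to an overlapping gene model. It covered 287 gained genes. The members and gene lists were chosen with earlier results of these data known. Genes named are the 20 most abundant with a symbol or described function, up to 4 per function list (ties included), the 3 most unequal between OsbZIP47KD replicates in each direction, and genes at the limits, unless said to be named or picked with their values known, and the 6 genes called by the test are named as well. Gene, promoter and protein sequences were not analysed here.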

Additional observations from a re-analysis of the deposited data

How the results depend on the processing

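With a WT limit of 0 counts there were 93 gained and 19 lost genes, with a limit of 5 counts 665 and 173, with a minimum of 10 counts in each high library 54 and 18, and with a minimum of 20 counts 4 and 1. Limits in CPM gave 278 gained and 15 lost genes, and limits doubled to 4 and 10 counts, chosen after the data were seen, gave 94 and 37. With a library left out, gained genes ran from 468 to 1642, of which 217 to 302 were among the 302, and lost genes from 147 to 301. A low group left with 1 library then had a limit of 1 count, and all of the 302 were kept only where both WT libraries stayed. Gained genes with a gained neighbour numbered 40 of 302 as used, 70 within 10 places and 22 without identical pairs. Without OsbZIP47KD replicate 1 they numbered 389 of 1642, and without OsbZIP47KD replicate 2 they numbered 65 of 468. Without WT replicate 1 they numbered 102 of 542, and without WT replicate 2 they numbered 86 of 481. A larger set alone raises such a number, and no background share was computed for these settings. Over all genes, 32 were called higher and 132 lower by edgeR. Library totals gave 52 higher, no filter 236 higher and 551 lower, and DESeq2 85 higher and 304 lower. The share of tested genes called higher was 0.127% as used, 0.643% with no filter and 0.318% with DESeq2. When low genes were instead removed by a cut-off of 1 CPM, to be reached by 2 or more libraries, 29532 genes were tested. Of these, 22 (0.0745%) were called higher and 118 lower. All 302 gained genes passed this cut-off and were tested, and 4 of them were called higher, against 26 of 302 with no filter. Gained genes tested numbered 66 as used, 302 with no filter and 65 with DESeq2. With a library left out, 21 to 382 were called higher and 49 to 850 lower. Gained genes called higher numbered 6, 26 with no filter, 14 with DESeq2, and 3 to 11 with a library left out, where a lone library took its spread from the other group. The replicate numbers were not shown to pair the samples, since deviations from the group means correlated at 0.0385 over 21512 genes. With the replicate block, 186 genes (0.735%) were called higher and 410 lower, and 15 of the 66 gained genes tested were among those called higher. The cause of these shifts was not tested, apart from the genes and libraries that each setting removes. The planned search for TGACG in promoters was not run, as no promoter sequence was at hand. Depth limits what a low gene can show, since 5 counts may be as few as 3 fragments.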
